A study of Homo sapiens with 6 samples.

Results

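The human osteosarcoma line U-2OS was compared after transfection with CDK11 siRNA and after transfection with nonspecific siRNA. The comparison rests on 2 of the 6 arrays of the study, 1 for each condition, and the values reported here are log2 differences, CDK11 siRNA minus nonspecific siRNA. The other 4 arrays held untransfected U-2OS cells and KHOS cells, a second human osteosarcoma line, left untransfected or given either siRNA. Both siRNAs were used at 40 nM, the study's methods give 48 h after transfection, and RNA of 3 flasks was pooled for each array. RNA was hybridized to Affymetrix U133 Plus 2.0 arrays, which carry 54675 probe sets. The number of arrays limits the precision: no spread between replicates can be given, no difference below has a test, and a difference between the lines was not tested. The arrays compared differ also in whatever else set those pools of flasks apart, which cannot be told apart from the siRNA.

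CDK11 is a cyclin-dependent kinase encoded by the neighbouring genes CDK11A and CDK11B. It pairs with the L-type cyclins and acts on transcription by RNA polymerase II and on the splicing of its transcripts, and a shorter form made in mitosis acts on centrosomes and on the cohesion of sister chromatids. In osteosarcoma its expression has been tied to growth and survival of the tumour cells, and the question put to the arrays was which genes change when it is depleted.

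Only probe sets that passed a signal of 100 (6.64 as log2) on at least 1 array of the 6 were kept, which left 16397 probe sets and 8878 named genes. Where 3 levels follow each other, they are log2 levels in the order untransfected cells, nonspecific siRNA, CDK11 siRNA, and for U-2OS unless KHOS is named. The log2 differences in U-2OS had an SD of 0.365 over the kept probe sets, so that 3 SD from their mean lay at -1.07 and 1.12. In KHOS the SD was 0.449. The share of all probe sets above the limit lay between 24.8% and 25.9% on the 6 arrays. The marker SPARC, a matrix protein of bone, had log2 levels of 12.93 in untransfected cells, 12.80 after nonspecific and 12.97 after CDK11 siRNA, and VIM, which encodes the mesenchymal filament protein vimentin, had 14.68, 14.52 and 14.63 by its brightest probe set. Of 9 osteoblast and mesenchymal markers, 4 were above the limit on a U-2OS array, but RUNX2, 1 of them, only in untransfected cells. COL1A2, ALPL, IBSP and SP7, also genes of bone-forming cells, lay between 2.19 and 3.0 on the 3 U-2OS arrays. None of 8 epithelial, 6 blood and 3 liver markers was above the limit there, and the highest level was that of EPCAM, 5.89 in untransfected cells.

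The targeted transcript was depleted in the U-2OS array labelled CDK11 siRNA. CDK11A and CDK11B are measured together, and the brightest shared probe set had log2 levels of 8.97 in untransfected cells, 8.88 after nonspecific and 6.24 after CDK11 siRNA, a log2 difference of -2.65 that left 15.95% of the signal. A further kept probe set stood at 6.84, 6.51 and 3.75, with a difference of -2.76. Shared probe sets under the limit on every array did not all follow, with differences of -2.16, -0.42 and -0.21. In KHOS these differed by -1.51, -1.32 and -1.89. The L-type cyclins moved little, with CCNL1 at 9.16, 9.33 and 9.64 and CCNL2 at 8.55, 8.72 and 8.51.

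Beyond 3 SD lay 257 of the 8878 genes, or 2.89%. Of these 135, or 1.52% of all genes, were higher with CDK11 siRNA and 122, or 1.37%, were lower. In KHOS 0.856% of genes were higher and 1.09% lower by its own bounds. Many of the U-2OS calls rest on dim probe sets. For 122 of the 257 genes the probe set was not above the limit on either array compared, and 113 of these were kept only because they were bright in KHOS. Both arrays were above the limit for 58 genes. The gene was called by several probe sets in 14 cases, by 1 of several in 144 and by the only kept one in 99.

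**Figure D1:**
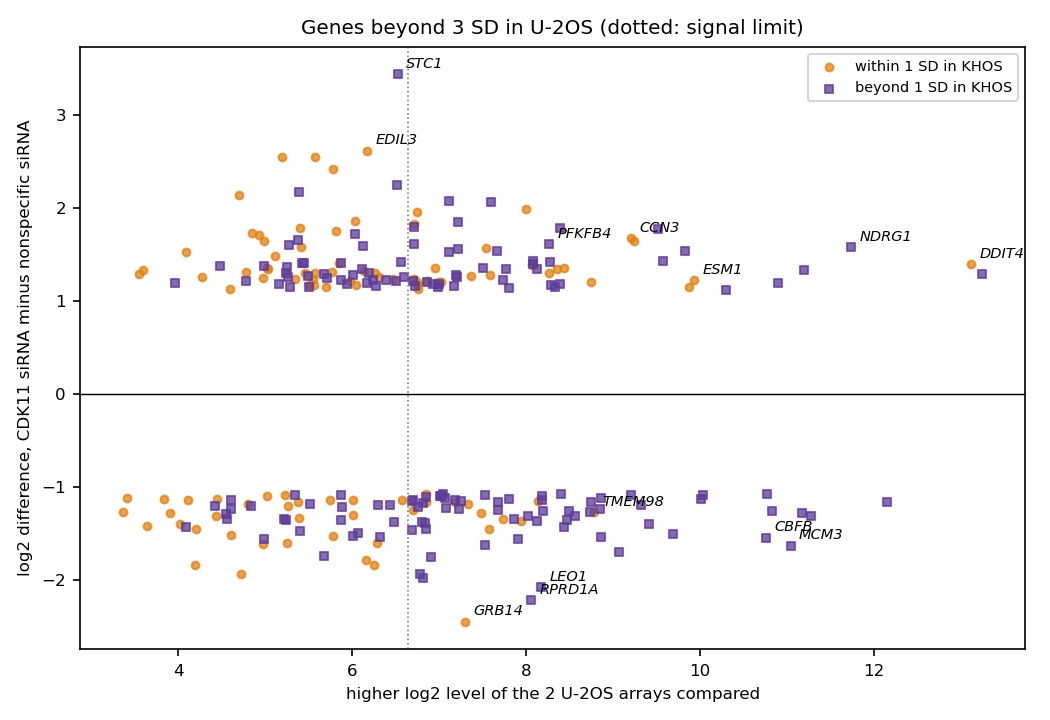
Genes beyond 3 SD in U-2OS, with the higher log2 level of the 2 arrays compared on the x axis and the log2 difference on the y axis, 1 point per gene; orange points lie within 1 SD of the mean difference in KHOS and purple squares beyond it, and the dotted line is the signal limit. Among the brightest higher genes are NDRG1 and DDIT4, among the brightest lower ones MCM3 and CBFB, and the largest positive differences lie near or below the limit.

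The higher and the lower genes stood differently towards the untransfected cells. The 135 higher genes had a median difference of 1.31 against nonspecific siRNA and of 0.44 against untransfected cells, and their nonspecific siRNA levels were themselves lower than untransfected by a median of -0.97. The 122 lower genes had medians of -1.28 and -1.24, with 0.06 between the control arrays. The level with CDK11 siRNA lay above both control arrays for 105 of the 135 higher genes and below both for 112 of the 122 lower genes. Of all genes 34.0% lay above both and 31.1% below both. The called genes were selected against the nonspecific siRNA array, so that side of these counts was fixed in advance. The selection also favours low nonspecific siRNA levels among the higher genes, so the median of -0.97 is not independent of it. Between nonspecific siRNA and untransfected U-2OS cells, measured the same way, 309 genes lay beyond the same bounds, 208 of them lower. The differences against the control arrays share the CDK11 siRNA array, so they are set side by side here and not counted as separate evidence.

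Among the 39 lists with at least 10 measured members, hypoxia and glycolysis had the largest share over 1.5-fold higher in U-2OS. That share was 29.3%, and 27.8% for the IGF axis. By median it ranked 2, after semaphorins and axon guidance, and the lists were chosen with earlier results of these data known. Cells short of oxygen stabilize HIF transcription factors, which raise glucose uptake, glycolytic enzymes, collagen-modifying enzymes and regulators of survival and mTOR signalling; several of the same genes also respond to nutrient and energy stress. In U-2OS, 12 of 41 measured members were over 1.5-fold higher with CDK11 siRNA by their brightest probe set and 0 were as much lower, where 4.05% of all genes were higher and 3.85% lower. The median difference of the list was 0.29 against 0.01 for all genes, and 37 of 41 members lay above 0. The level with CDK11 siRNA was above both U-2OS control arrays for 31 of 41 members, or 75.6%, and below both for 0, where 34.0% of all genes were above both and 31.1% below both.

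The 5 members beyond 3 SD were secreted, metabolic and stress-response genes. STC1, which encodes the secreted glycoprotein stanniocalcin, had the largest difference of all genes beyond 3 SD. Averaged over its pair of probe sets it had log2 levels of 4.41 in untransfected cells, 3.08 after nonspecific and 6.52 after CDK11 siRNA, a difference of 3.44, and its brighter probe set alone stood at 4.51, 3.99 and 7.29. Both control levels of STC1 were below the signal limit, so the size of its difference is not exact. PFKFB4, an enzyme that sets the level of the main activator of glycolysis, had log2 levels of 7.21, 6.65 and 8.26, a difference of 1.62. NDRG1, a stress-responsive gene that is a standard hypoxia marker, stood at 10.23, 10.15 and 11.74, a difference of 1.58 or 2.99-fold. In each of these genes the CDK11 siRNA array was above both controls.

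DDIT4, which encodes the mTOR inhibitor REDD1 and is a target of both hypoxia and the integrated stress response, was among the brightest genes called, with log2 levels of 12.33, 11.72 and 13.12 and a difference of 1.40. LOX, the lysyl oxidase that crosslinks collagen, depended on the control: its brightest probe set stood at 6.41, 5.09 and 6.64, which gave 1.55 against nonspecific siRNA and 0.23 against untransfected cells. Short of the bounds but over 1.5-fold higher were PDK1, the kinase that closes the entry of pyruvate into mitochondria, with a difference of 0.87, and ADM, the vasodilator peptide adrenomedullin, with 0.78. The glucose transporter SLC2A1 had 0.76, the carbonic anhydrase CA12 0.68, hexokinase HK2 0.63, the collagen lysyl hydroxylase PLOD2 0.61 and the mitophagy receptor BNIP3L 0.59. Against untransfected cells SLC2A1, CA12 and BNIP3L differed by 0.25, 0.06 and -0.09, and ADM, PDK1, HK2 and PLOD2 by 1.16, 0.79, 0.64 and 0.52.

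The abundant enzymes of glycolysis hardly differed. GAPDH had log2 levels of 15.95 in untransfected cells, 15.83 after nonspecific and 15.90 after CDK11 siRNA, and LDHA 15.42, 15.24 and 15.34. The differences of ENO1, PGK1, ALDOA and PGAM1 were 0.12, 0.09, 0.08 and 0.07. The transcripts of the oxygen-regulated factors themselves, HIF1A and EPAS1, had 0.13 and 0.16. VEGFA, the growth factor of blood vessels, had 0.41, EGLN1, the oxygen-sensing hydroxylase that marks HIF proteins for decay, 0.41, and BNIP3, a mitophagy receptor related to BNIP3L, 0.43. The lowest values were those of ALDOC and PFKP, at -0.13 each. None of these abundant enzymes was among the 12 members over 1.5-fold higher, a split described after the values were seen. The list of IGF binding proteins and the IGF axis, which also holds STC1, had a like share over 1.5-fold higher, 5 of 18. Its median, however, was 0.07. Against untransfected cells 3 of its members were over 1.5-fold higher and 4 lower, where 4.88% and 5.97% of all genes were.

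**Figure D2:**
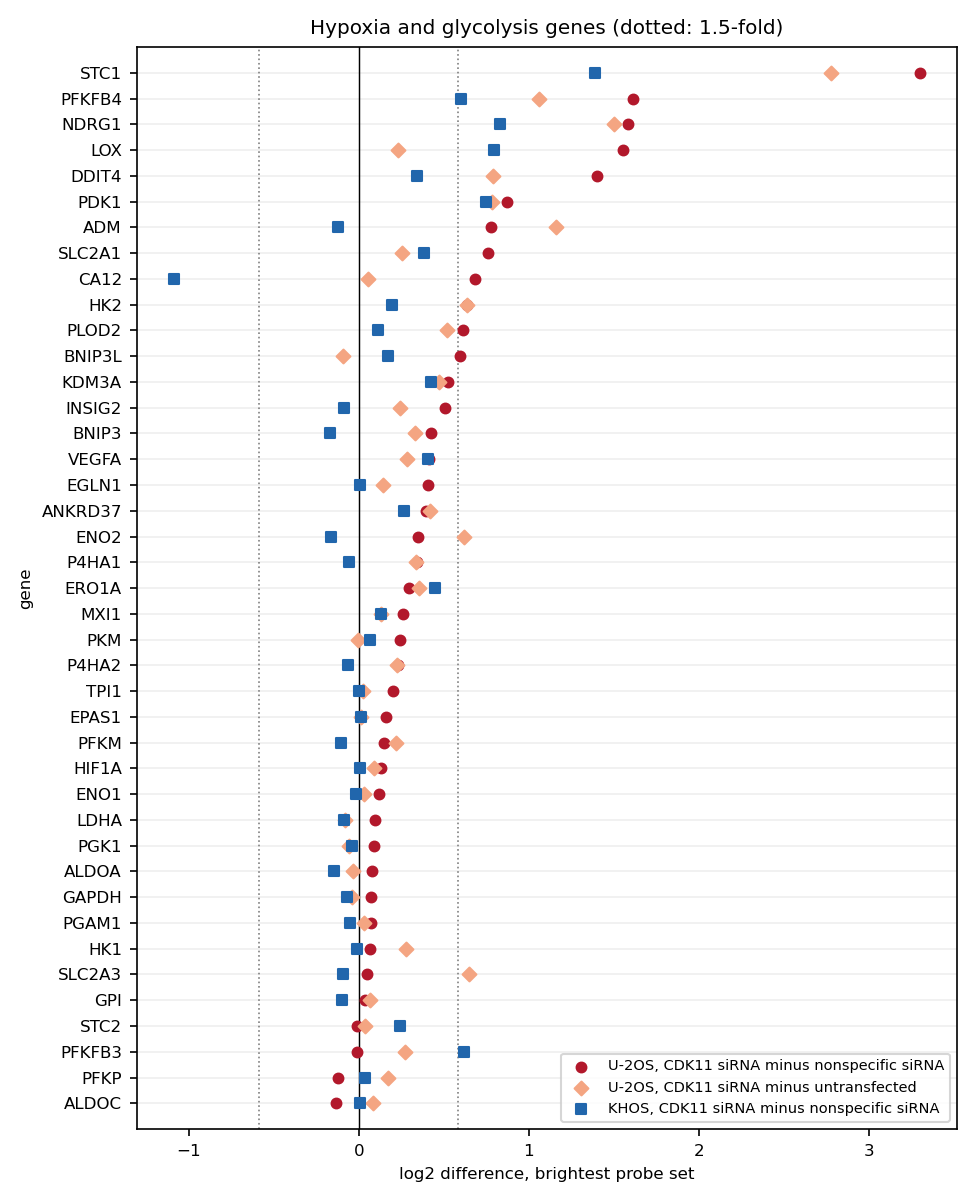
Log2 differences of the 41 measured hypoxia and glycolysis genes by their brightest probe set, in order of the U-2OS difference; red circles are U-2OS CDK11 siRNA minus nonspecific siRNA, light diamonds U-2OS CDK11 siRNA minus untransfected cells (these share 1 array) and blue squares KHOS CDK11 siRNA minus nonspecific siRNA, and dotted lines mark 1.5-fold. The red circles lie right of 0 for 37 genes, and the blue squares lie on both sides of it.

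In KHOS the same list had a median of 0.01, with 24 of 41 members above 0. Of its members 6 were over 1.5-fold higher and 1 lower, where 5.98% of all KHOS genes were higher and 7.78% lower. The CDK11 siRNA level lay above both KHOS control arrays for 21 members and below both for 8. NDRG1 had log2 levels of 9.15, 9.88 and 10.70 in KHOS, and STC1, already bright there, 8.66, 9.13 and 10.43, so that both stood above their KHOS controls as well, NDRG1 by 0.83 against nonspecific siRNA and STC1 by 1.30. ADM in KHOS was at 11.28, 11.69 and 11.56, HK2 at 9.80, 9.70 and 9.90 and PLOD2 at 11.32, 11.10 and 11.21. The control mattered in KHOS for DDIT4, whose levels of 10.28, 11.80 and 12.14 put most of its difference from untransfected cells into the nonspecific siRNA array. Against untransfected KHOS cells the list had a median of 0.17 and 11 members over 1.5-fold higher, where 9.03% of all KHOS genes were higher and 9.33% lower. Against untransfected U-2OS cells it had 0.23 and 9, where 4.88% of all U-2OS genes were higher and 5.97% lower. The medians of the lines thus lay closer together when each was set against untransfected cells.

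HIF factors are known to bind a short core motif in DNA, so the 250 bases before the annotated start were read for the genes of the list, from RefSeq windows of assembly GRCh38.p14. The letters ACGTG and GCGTG, the forms of the core, were searched on both strands, where they read CACGT and CACGC on the other strand; CACGTG holds ACGTG in both directions. Of all 35116 windows, 43.2% held at least 1 of them, and of 65 windows of 36 genes of the list, 66.2% did. ACGTG alone was in 18.5% of all windows and 44.6% of those of the list. Of 13 windows of 9 genes among the 12 over 1.5-fold higher, 11 held at least 1. The list was put together from genes of hypoxia and glycolysis, so its larger share than that of all windows is not a result of these arrays. Several windows of a gene can overlap, and a match is a description of the letters only. The windows of 4 of these genes are shown, since they differ in the number of matches, which are in capitals, in the direction of transcription.
DDIT4: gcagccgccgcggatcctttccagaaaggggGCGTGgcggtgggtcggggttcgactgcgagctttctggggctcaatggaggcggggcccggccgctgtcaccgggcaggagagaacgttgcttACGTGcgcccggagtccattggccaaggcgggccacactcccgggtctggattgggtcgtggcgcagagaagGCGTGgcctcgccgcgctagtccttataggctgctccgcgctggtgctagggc
LOX: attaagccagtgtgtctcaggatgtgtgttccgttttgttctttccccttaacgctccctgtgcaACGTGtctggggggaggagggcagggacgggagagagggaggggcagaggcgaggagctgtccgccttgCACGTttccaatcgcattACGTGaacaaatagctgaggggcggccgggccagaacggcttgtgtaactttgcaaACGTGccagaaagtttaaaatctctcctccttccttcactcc
PFKFB4: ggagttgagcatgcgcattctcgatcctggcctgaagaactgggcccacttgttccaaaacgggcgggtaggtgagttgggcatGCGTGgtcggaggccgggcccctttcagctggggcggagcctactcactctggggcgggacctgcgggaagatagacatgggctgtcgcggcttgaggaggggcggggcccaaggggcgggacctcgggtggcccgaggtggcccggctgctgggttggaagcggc
PLOD2: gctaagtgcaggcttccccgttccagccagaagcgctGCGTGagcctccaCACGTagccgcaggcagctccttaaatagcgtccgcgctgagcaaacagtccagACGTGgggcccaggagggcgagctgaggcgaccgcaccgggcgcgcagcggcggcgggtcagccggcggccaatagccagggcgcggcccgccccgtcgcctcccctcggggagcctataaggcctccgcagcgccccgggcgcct
They lie at chr10:72273674-72273923 on the plus strand for DDIT4, chr5:122078260-122078509 on the minus strand for LOX, chr3:48556804-48557053 on the minus strand for PFKFB4 and chr3:146161185-146161434 on the minus strand for PLOD2. LOX held 4 matches, all ACGTG, and is shown for 1 of its 3 annotated starts. DDIT4 and PLOD2 held 3 each and PFKFB4 1, which was GCGTG. The number of matches did not follow the differences: PFKFB4, with 1 match, had a difference of 1.62, and PLOD2, with 3, had 0.61. SLC2A1, with a difference of 0.76, held none in its window.

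Against nonspecific siRNA, the medians of the DNA replication and mitosis lists were below 0 in KHOS and near or above 0 in U-2OS, while the median of the homologous recombination list was below 0 in both lines. Of 51 DNA replication genes, 2 were over 1.5-fold lower and 1 higher in U-2OS, while 16 were lower and 0 higher in KHOS. Of all genes 3.85% were lower and 4.05% higher in U-2OS, and 7.78% and 5.98% in KHOS. The number lower in U-2OS thus lay near the share of all genes. The level with CDK11 siRNA was nevertheless below both U-2OS control arrays for 27 of the 51 genes, or 52.9%, where 31.1% of all genes were. The medians were -0.00 in U-2OS and -0.43 in KHOS. With untransfected U-2OS cells as the control the median was -0.18. In that comparison 6 of the 51 genes were over 1.5-fold lower and 0 higher, where 5.97% and 4.88% of all genes were. The U-2OS genes lower were MCM3, a subunit of the replicative helicase, and CDC7, the kinase that fires replication origins, and both were lower in KHOS as well. MCM3 had log2 levels of 11.50, 11.04 and 9.41 in U-2OS and 10.91, 10.78 and 9.23 in KHOS, and CDC7 had 8.42, 8.19 and 6.93 against 9.62, 9.12 and 7.04. MCM2, of the same helicase, differed by -0.48 in U-2OS and -0.70 in KHOS. RFC4, of the clamp loader, differed by -0.39 and -1.71, and POLA1, the DNA polymerase that makes primers, by 0.78 and -0.13.

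The 48 mitosis genes had a median of 0.08 in U-2OS and -0.25 in KHOS. Of them 0 and 4 were over 1.5-fold lower, where 3.85% and 7.78% of all genes were. The U-2OS value depends on the control array, as nonspecific siRNA itself lay below untransfected cells, with a median of -0.38, and against untransfected cells the median with CDK11 siRNA was -0.25. BUB1, a spindle checkpoint kinase, was called higher by 1 of 2 probe sets with levels of 6.57, 4.78 and 6.74, which sets the nonspecific array apart from both others. The brightest probe set of BUB1 differed by 0.10. SMC4, of condensin, was called lower by 1 of 3 probe sets, with 6.05, 6.84 and 5.73, while its brightest one differed by 0.10. For 22 genes of homologous recombination and the Fanconi pathway the medians were -0.11 in U-2OS and -0.37 in KHOS. In U-2OS 3 of them were over 1.5-fold lower and 1 higher, against 3.85% and 4.05% of all genes, and 14, or 63.6%, lay below both control arrays, where 31.1% of all genes did. BRCA1 differed by -0.65 and -1.29, FANCE by -0.69 and -0.39 and RAD54B by 0.92 and -0.34. Among 20 G1 cyclins and CDK inhibitors, CCNG2, an atypical cyclin of arrested cells, was called higher in U-2OS, and CCNE1, which drives entry into S phase, differed by -0.99 in U-2OS and -1.45 in KHOS. CCNG2 had levels of 6.53, 5.79 and 7.0 in U-2OS and 7.29, 8.01 and 8.26 in KHOS, its probe set within 1 SD there.

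**Figure D3:**
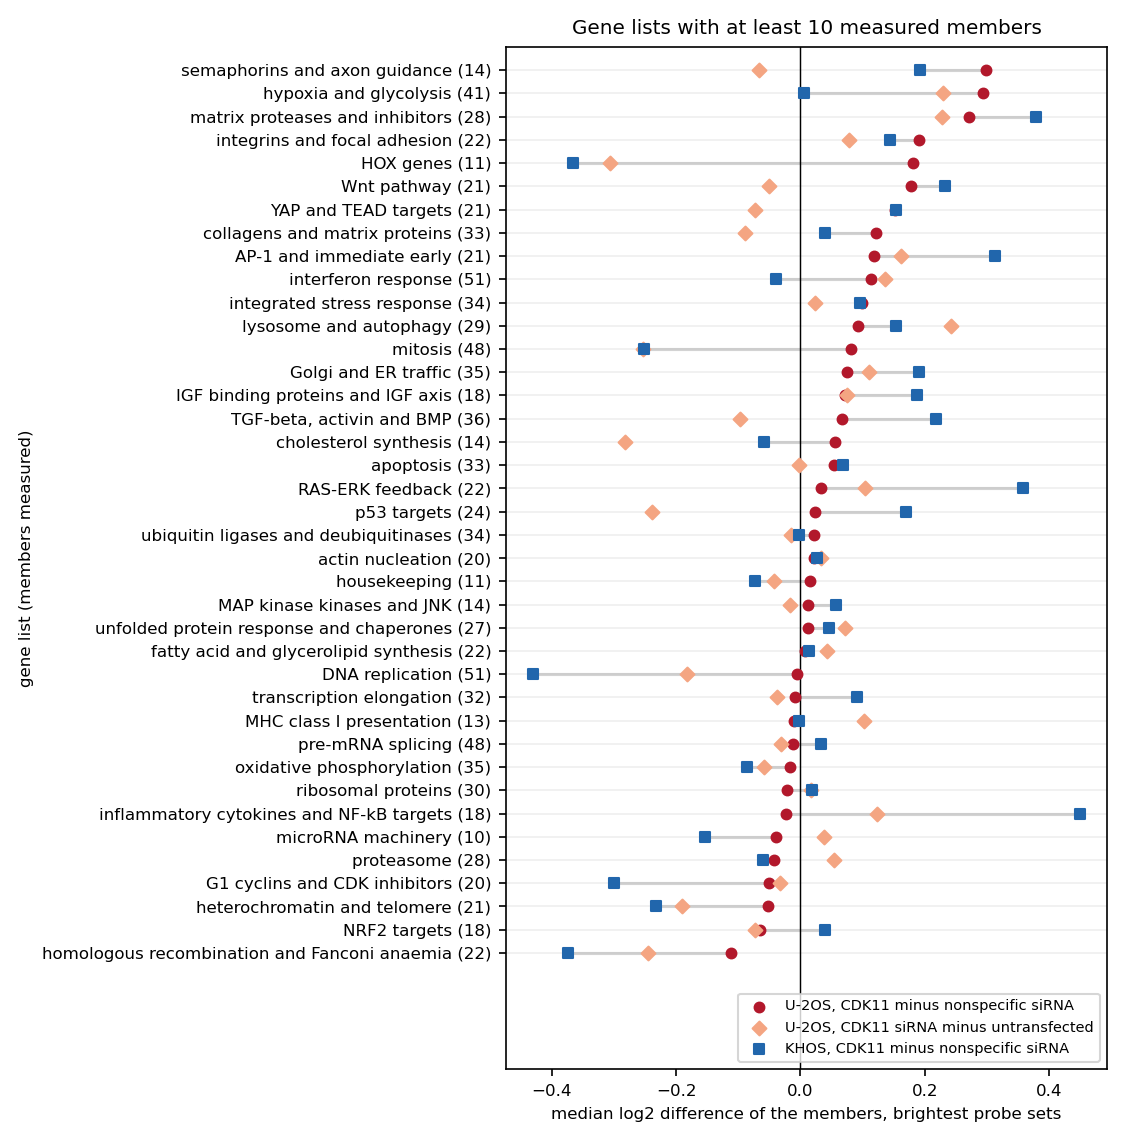
Median log2 difference of each gene list with at least 10 measured members, whose number is in brackets, by the brightest probe sets; red circles are U-2OS against nonspecific siRNA, light diamonds U-2OS against untransfected cells (these share 1 array) and blue squares KHOS against nonspecific siRNA. Hypoxia and glycolysis lies at 0.29 in U-2OS and 0.01 in KHOS, and DNA replication at -0.00 and -0.43.

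CDK11 acts in transcription, and a few elongation factors were among the lowest genes in U-2OS. LEO1, a subunit of the PAF complex that travels with RNA polymerase II, had log2 levels of 8.06 in untransfected cells, 8.17 after nonspecific and 6.09 after CDK11 siRNA, a difference of -2.08. RPRD1A, which binds the tail of RNA polymerase II, was lower by 3 of 4 kept probe sets, which averaged 7.91, 8.05 and 5.83, a difference of -2.22. Both CDK11 siRNA levels were below both controls, and both genes were lower in KHOS, with -1.36 and -1.34. Over all 32 measured elongation genes the median was -0.01, with 1 over 1.5-fold higher and 3 lower, where 4.05% and 3.85% of all genes were. IWS1, which bridges elongation and mRNA export, had -0.75 by its brightest probe set, and ELL2, a subunit of the super elongation complex, was called higher with levels of 5.55, 5.47 and 6.69. HEXIM1, which holds the elongation kinase P-TEFb inactive, was called lower by 1 of 2 probe sets at 6.60, 6.57 and 5.43, near the signal limit. Its brightest probe set differed by 0.21. Of 48 splicing genes 0 were over 1.5-fold higher and 2 lower, and RBFOX2, a regulator of exon choice, was called by 1 of 3 probe sets at 9.01, 8.86 and 7.32, a difference of -1.54 in U-2OS and -1.50 in KHOS. The brightest probe set of RBFOX2 differed by 0.02 in U-2OS, and the mean of all 3 by -0.54.

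Other genes far down in U-2OS were low in KHOS as well. CBFB, the partner of the RUNX transcription factors, had log2 levels of 10.95, 10.76 and 9.21, a difference of -1.55 against -2.15 in KHOS. USP13, a deubiquitinase called by 1 of 3 probe sets, differed by -1.76 and -1.92, and UBE2K, a ubiquitin-conjugating enzyme called by 1 of 3 probe sets, by -1.63 and -3.16. Their brightest probe sets differed by -0.88 and -0.02 in U-2OS, and the mean of the kept probe sets of UBE2K by -0.62. TMEM19, a membrane protein lower by both of its probe sets, differed by -1.98 and -2.48, and MAP2K4, a kinase that activates JNK, by -1.43 and -1.34. URI1, a chaperone-like protein tied to RNA polymerases, was lower by both of its probe sets, at 10.89, 10.83 and 9.56, and RASSF3, of the RAS-association family, by both of its own at 9.36, 9.42 and 8.01. ACTR3 and SEC22C, which act in actin branching and in vesicle traffic, were called by 2 of 4 and 1 of 4 probe sets, with -1.26 and -1.37. The brightest probe sets of these genes differed by -0.23 and -0.21. Of all 257 genes, 43, or 16.7%, were beyond 3 SD in the same direction in KHOS, 26 of them lower. Of all 8878 genes, 1.95% were beyond 3 SD in KHOS in either direction. Not beyond 3 SD there were 212 of the 257, and 109 of these lay beyond 1 SD.

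Genes beyond 3 SD in U-2OS and within 1 SD in KHOS numbered 103, 62 higher and 41 lower, where 76.3% of all kept named probe sets lay within 1 SD in KHOS. The probe set was above the limit on a KHOS array for 81 of them, and for 18, 14 higher and 4 lower, also on 1 of the 2 U-2OS arrays compared. Among the 22 that were not above the limit in KHOS, a KHOS difference could hardly be measured. GRB14, an adaptor that dampens insulin receptor signalling, had the lowest difference of the 257 genes, which leave out the shared CDK11 probe sets. Its log2 levels were 6.65 in untransfected cells, 7.29 after nonspecific and 4.84 after CDK11 siRNA, a difference of -2.45. It lay between 2.58 and 2.65 on the KHOS arrays, where it was not expressed above the limit. TMEM98, a membrane protein, stood at 8.87, 8.78 and 7.5 in U-2OS and at 2.39 or below in KHOS. CCN3, a matrix-associated signalling protein, was higher by both of its probe sets, with 8.48, 7.52 and 9.20, a difference of 1.68, and lay at 3.16 or below in KHOS. ESM1, a proteoglycan secreted by endothelial and tumour cells, had 8.35, 8.71 and 9.93, above both controls, and 5.32 or below in KHOS. SLC1A3, a glutamate and aspartate transporter, had 7.86, 7.01 and 8.35 and 3.14 or below in KHOS. ESM1, SLC1A3 and TMEM98 were picked after their values were seen, for being above the limit on both U-2OS arrays.

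Of these 18 genes measured above the limit in both lines, DDIT4 was the brightest in U-2OS. WASL, which activates actin branching, was lower by 1 of 2 probe sets, with log2 levels of 7.64, 7.94 and 6.57 in U-2OS and 8.69, 8.74 and 8.41 in KHOS. UBASH3B, a phosphatase acting on receptor signalling, had 7.34, 7.34 and 6.15 in U-2OS and 8.95, 8.69 and 8.70 in KHOS, and FBXW2, which selects targets of a ubiquitin ligase, had 7.08, 6.69 and 5.44 against 9.45, 9.23 and 9.08. Both were called by 1 probe set of several that were not all lower. NGRN, a mitochondrial RNA-binding protein called by 1 of 3 probe sets, stood at 8.12, 7.59 and 9.24 in U-2OS and at 10.17, 9.29 and 9.65 in KHOS. The brightest probe set of NGRN differed by 0.05 in U-2OS. PHLDA1, a gene induced by ERK signalling, was higher by 2 of 6 probe sets at 5.0, 4.76 and 5.97 in U-2OS, and in KHOS these stood at 10.24, 10.50 and 10.87. The U-2OS level of those probe sets of PHLDA1 was under the limit on average.

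**Figure D4:**
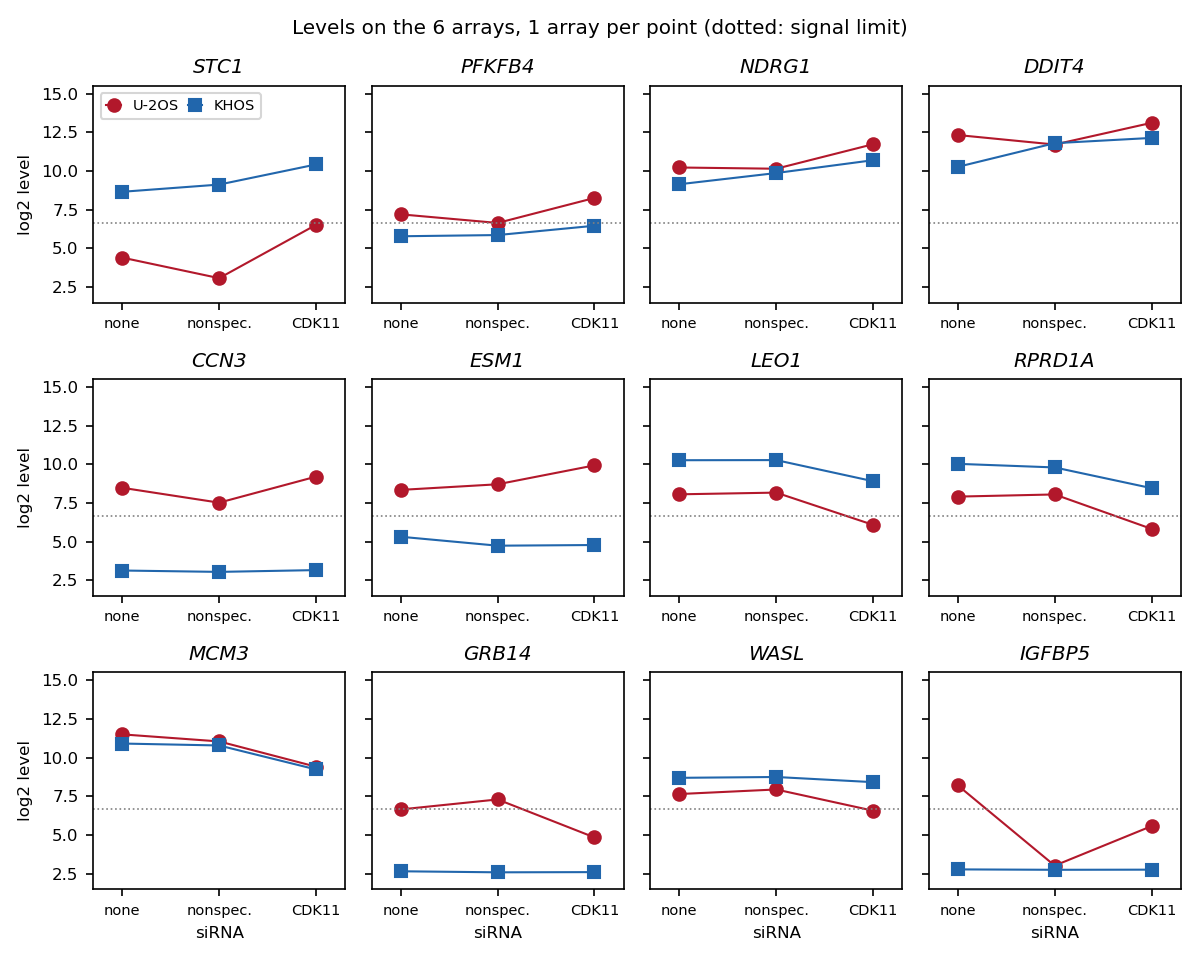
Log2 levels of 12 genes on the 6 arrays, 1 point per array, for untransfected cells, nonspecific siRNA and CDK11 siRNA, averaged over the probe sets beyond 3 SD in U-2OS; red circles are U-2OS, blue squares KHOS, and the dotted line is the signal limit. STC1, PFKFB4, NDRG1 and DDIT4 are highest with CDK11 siRNA in U-2OS, LEO1, RPRD1A, MCM3, GRB14 and WASL are lowest with it, and IGFBP5 is lowest with nonspecific siRNA.

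Several matrix and growth factor genes were higher after CDK11 siRNA than after nonspecific siRNA, but lower than in untransfected cells. IGFBP5, which binds insulin-like growth factors, had log2 levels of 8.20 in untransfected cells, 3.02 after nonspecific and 5.57 after CDK11 siRNA, which is 2.55 above the one and -2.63 from the other. EDIL3, a ligand of integrins, had 7.84, 3.55 and 6.17, and IGFBP7, a secreted relative of IGFBP5, had 10.01, 7.54 and 8.75. RUNX2, the master transcription factor of the osteoblast lineage, stood at 7.03, 4.39 and 5.68, FZD2, a Wnt receptor, at 5.43, 2.57 and 4.09, and TIMP3, an inhibitor of matrix proteases, at 6.44, 4.13 and 5.28. In all 6 of these genes the CDK11 siRNA level lay between those of the control arrays. FZD2 and TIMP3 were called by 1 of 2 and 1 of 4 probe sets, and by the brightest ones they differed from nonspecific siRNA by -0.01 and 0.37. THBS1, an adhesive matrix protein called by 1 of 3 probe sets, with 7.57, 5.66 and 7.21, and NEDD4, a ubiquitin ligase, with 6.82, 4.27 and 6.52, came closer to the untransfected level. PTX3, a soluble pattern receptor, showed this in both lines, at 9.91, 8.28 and 9.83 in U-2OS and 10.43, 8.29 and 9.79 in KHOS. Whether the nonspecific siRNA or that pool of cells lowered these genes cannot be told apart.

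Lists of matrix and signalling genes shifted with the control in the same way. Of 33 collagens and matrix proteins, 2 were over 1.5-fold higher and 2 lower, where 4.05% and 3.85% of all genes were. Their median was 0.12 against nonspecific siRNA and -0.09 against untransfected cells. The corresponding medians were 0.07 and -0.10 for 36 genes of TGF-beta, activin and BMP signalling, 0.18 and -0.05 for 21 Wnt genes, 0.15 and -0.07 for 21 YAP and TEAD targets, 0.30 and -0.07 for 14 genes of semaphorins and axon guidance, and 0.18 and -0.31 for 11 HOX genes. TGFB1, the prototype ligand of its family, was called higher at 4.70, 4.43 and 5.84, all under the limit. For 28 matrix proteases and inhibitors both medians were above 0, at 0.27 and 0.23, and the KHOS median was 0.38. Of them 3 were over 1.5-fold higher in U-2OS and 12 in KHOS, where 4.05% and 5.98% of all genes were. ADAM12, a membrane protease, had 7.23, 7.59 and 8.55 in U-2OS, and PLAU, the urokinase protease, was called higher by 1 of 2 probe sets at 4.37, 3.61 and 5.40. For 22 integrin and focal adhesion genes the medians were 0.19 and 0.08. FERMT2, which activates integrins, stood at 12.15, 11.74 and 12.73, and ITGA4, an integrin subunit, was called at 4.78, 2.64 and 5.19, under the limit in U-2OS.

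Interferon and cytokine genes differed between the lines in another way. Interferon response genes are induced by foreign RNA, and in KHOS the levels with CDK11 siRNA were above untransfected cells by a median of 1.65 over 51 genes, but with a median of -0.04 against nonspecific siRNA. In U-2OS the median was 0.11 against nonspecific siRNA and 0.14 against untransfected cells, with 0.00 between the control arrays, and only 23 of the 51 genes were above the limit on 1 of the 2 arrays compared. The level with CDK11 siRNA lay above both U-2OS controls for 27 of the 51 genes and below both for 9, where 34.0% and 31.1% of all genes did. RIGI, a sensor of double-stranded RNA, had log2 levels of 7.12, 7.43 and 8.18 and was above the limit on all 3 arrays. OAS1, which activates the RNase that degrades viral RNA, was called at 3.08, 3.12 and 4.85, SAMD9L, an antiviral factor, at 4.62, 3.62 and 5.11, and OASL, a relative of OAS1, by 1 of 2 probe sets at 3.19, 3.47 and 4.60. The brightest probe set of OASL differed by -0.25. None of OAS1, SAMD9L and OASL passed the limit in U-2OS, while on the siRNA arrays of KHOS they lay between 8.70 and 9.95.

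Of 18 inflammatory cytokines and NF-kB targets, 3 were over 1.5-fold higher and 1 lower in U-2OS, and 8 higher in KHOS. Of all genes 4.05% were higher and 3.85% lower in U-2OS, and 5.98% higher in KHOS. PTGS2, the inducible cyclooxygenase, was called higher in both lines, with 6.36, 6.66 and 7.80 in U-2OS and 8.07, 9.58 and 10.91 in KHOS. IL1A, a proinflammatory cytokine, stood at 4.91, 7.04 and 8.02, while it lay at 2.61 with CDK11 siRNA in KHOS. MMP1, the interstitial collagenase, stood at 6.75, 10.57 and 10.14 in U-2OS, so that its main difference lay between transfected and untransfected cells. For 21 AP-1 and immediate early genes the medians were 0.12 in U-2OS and 0.31 in KHOS, and for 22 genes of RAS-ERK feedback 0.03 and 0.36.

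The stress, survival, lysosome and fatty acid lists had medians between 0.01 and 0.10 in U-2OS, with some members well beyond. Of 34 integrated stress response genes 2 were over 1.5-fold higher, DDIT4 and the lipoprotein receptor VLDLR, which had 7.44, 7.41 and 8.34, and the median was 0.10. As the share to set beside this and the counts below, 4.05% of all genes were over 1.5-fold higher in U-2OS. Of 27 unfolded protein response and chaperone genes 0 passed 1.5-fold in U-2OS, and the largest value was that of EDEM1, which sends misfolded proteins to degradation, with 0.55. Of 24 p53 targets 2 were over 1.5-fold higher, the death receptor FAS with 0.69 and the DNA damage sensor DDB2 with 0.65, but both were lower than in untransfected cells, by -0.24 and -0.67. APAF1, the scaffold of the apoptosome, had 7.37, 6.70 and 7.73, a difference of 1.03, and 4 of 33 apoptosis genes were over 1.5-fold higher and 0 lower, where 4.05% and 3.85% of all genes were. Against untransfected cells 1 was higher and 1 lower, where 4.88% and 5.97% of all genes were. The median of 29 lysosome and autophagy genes was 0.09, and the protease CTSZ was called lower in both lines, by -1.36 in each. Of 22 genes of fatty acid and glycerolipid synthesis, 3 were called, against 2.89% of all genes, each by 1 of several probe sets, while 0 passed 1.5-fold by the brightest one. GPAM, the enzyme of the first step of glycerolipid synthesis, was called by 1 of 2 probe sets at 6.85, 6.78 and 4.83. SPTLC2, a subunit of the enzyme that starts sphingolipid synthesis, was lower by -1.50, and SGMS2, a sphingomyelin synthase, higher by 1.15.

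No member of the ribosomal protein (30 measured), proteasome (28), oxidative phosphorylation (35), cholesterol synthesis (14) and housekeeping (11) lists passed 1.5-fold in either direction in U-2OS by its brightest probe set. The median differences of these lists were -0.02, -0.04, -0.02, 0.06 and 0.02. In oxidative phosphorylation 3 genes were nevertheless called by 1 of their probe sets. COX5A, of cytochrome oxidase, was higher by a dim one at 5.03, 3.35 and 5.77, and NDUFB8, of complex I, by one at 5.73, 5.17 and 6.39, while ATP5MC3, of the ATP synthase, was lower at 7.32, 7.18 and 6.02. Their brightest probe sets differed by -0.05, -0.13 and 0.01.

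Further lists were mixed. Of all U-2OS genes 1.52% were called higher and 1.37% lower, and by the brightest probe set 4.05% were over 1.5-fold higher and 3.85% lower. Of 34 ubiquitin ligases and deubiquitinases 1 was called higher and 4 lower. Among the lower ones was CDC27, of the anaphase-promoting complex, by 1 of 4 probe sets with -1.23 in U-2OS and -1.37 in KHOS. Of 35 Golgi and ER traffic genes 2 were over 1.5-fold higher and 1 lower, and RAB11FIP1, an adaptor of recycling endosomes, was called at 7.97, 6.64 and 8.08. Of 21 heterochromatin and telomere genes CBX5, which encodes the heterochromatin protein HP1 alpha, was called lower by 1 of 5 probe sets at 6.12, 6.80 and 5.42. The brightest probe set of CBX5 differed by 0.38. Of 18 NRF2 targets 0 were over 1.5-fold higher and 2 lower, the glutathione reductase GSR with -0.59 and the dim AKR1C3, and of 13 genes of MHC class I presentation 2 were lower, among them ERAP2, a peptide trimming enzyme under the limit in U-2OS, with -1.21. Of 10 genes of the microRNA machinery none passed 1.5-fold. Of the replication-dependent histones only 7 of 50 listed genes had a kept probe set, so that the group can hardly be described from these arrays.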

How the data were processed

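The authors deposited log2 expression values of 54675 probe sets, which their methods say were normalized with gcrma (background adjustment, quantile normalization across arrays and summary per probe set); the present and absent calls of their filter were not used here. Each array held pooled RNA of 3 flasks, so each line had 1 array per condition and no replicates. Genes were named from the platform annotation, updated by gene ID through RefSeq (GRCh38.p14): 41097 probe sets had 1 symbol, 1801 several and 11777 none. Quantile normalization forces 1 distribution on all arrays, so that a shift of all genes could not be seen.

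As in the methods of the study, probe sets whose highest value exceeded log2 of 100 were kept, and the differences between the siRNA arrays of a line were turned into z-scores with their mean and SD. A gene beyond 3 SD was valued as the mean over its probe sets beyond it. Of 48 gene lists, 45 had a measured member, valued by the brightest probe set (highest mean over the 6 arrays). The members and lists were chosen with earlier results of these data known. A rule named 116 genes. It took the 15 highest and 15 lowest genes beyond 3 SD, and the 10 highest and 10 lowest within 1 SD in KHOS. It also took up to 4 members beyond 3 SD of each list or else 2, and the 10 largest with several probe sets beyond 3 SD. Not all of these genes are described in the text, and other names there were chosen after their values were seen. The threshold was run on simulated data with the same noise at every level. That could not show how it does on dim probe sets. Alternatives covered the control array, filter, scale, normalization and probe sets. Python 3.11.15, pandas 2.3.3, numpy 2.4.6, statsmodels 0.14.6 (lowess) and matplotlib 3.10.9 were used.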

Additional observations from a re-analysis of the deposited data

Results flagged for a closer look

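HELLS and MIR9-1HG lay beyond 3 SD in opposite directions in the 2 lines, and no test of that difference was possible. HELLS, a chromatin remodeller, differed by 1.15 in U-2OS and by -1.44 in KHOS by the same probe set, whose U-2OS levels of 6.13, 4.36 and 5.51 were all under the signal limit. The host transcript MIR9-1HG differed by -1.10 in U-2OS, with levels of 8.06, 8.18 and 7.07, and by 1.69 in KHOS, whose levels there did not pass 4.14 and were under the limit.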

How the results depend on the processing

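The number of genes beyond 3 SD in U-2OS, 257 (135 higher and 122 lower), depended on how dim values were treated. It was 1051 (579 and 472) with no limit on the signal, 68 (30 and 38) with low values set to the limit, 729 (371 and 358) with the median and scaled MAD in place of mean and SD, and 130 (67 and 63) by the brightest probe set only. It was 119 (61 and 58) by the mean of the kept probe sets and 167 with the SD taken within 20 bins of level, where 67 were higher. With the limit applied to the 2 arrays compared, 85 genes were higher. Untransfected control, lowess and a bound of 1 log2 unit left each of these counts within 1.5 times. Genes also within 1 SD in KHOS, 103, numbered 25 with low values set to the limit and 49 by the brightest probe set. The number of hypoxia and glycolysis members over 1.5-fold higher, 12, was 9 against untransfected cells, and 11 with low values set to the limit, lowess, the mean of the kept probe sets, without STC1, or without the members shared with the integrated stress response list; these were chosen after seeing the data.

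Against untransfected U-2OS cells the differences of 27 of 116 named genes changed sign, 13 of them not beyond 3 SD to begin with, such as DDB2, -0.67, H2AC6, -0.72, and TGFB2, -0.90. The 14 that were beyond 3 SD were PEG10 0.0197, KLF5 -0.22, NEDD4 -0.30, IGFBP5 -2.63, EDIL3 -1.67, LYST 0.0236, PTX3 -0.0832, THBS1 -0.36, TIMP3 -1.16, IGFBP7 -1.26, SMAD6 -0.12, RUNX2 -1.35, FZD2 -1.34 and HELLS -0.62, and HELLS changed sign also by the mean of its kept probe sets, -0.0205, as did RPS24, 0.28. Lowess changed the sign of no named gene. Nor did low values set to the limit, but a difference that falls to 0 does not count as a sign change. Under that setting 70 of the 116 named differences moved by at least 1 SD. Some of them, such as those of IGFBP5, ITGA4 and NEDD4, fell to 0.0. List medians moved by 0.1 or more for 18 of 45 lists against untransfected cells, and for hypoxia and glycolysis by less under each alternative run. No paired analysis was possible because the labels give no replicate numbers and each condition had 1 array per line. The cause of these changes was not tested.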
